A study of Mus musculus with 8 samples.

Results

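Resident macrophage genes of fat were taken as 10 genes listed for perivascular and resident macrophages, not all of them specific to these cells. They were Adgre1, Csf1r, Mrc1, Lyve1, Timd4, Folr2, Cd163, F13a1, Cbr2 and Retnla. Members were the rows of the deposited count table that carry these symbols, 10 of 54532 genes, and all 10 passed the expression filter that left 15963 genes for testing. RNA was sequenced from the stromal vascular fraction (SVF) of gonadal WAT, which is what stays behind when floating adipocytes are removed from a collagenase digest of the pad and red cells are lysed. All 8 libraries came from male C57BL/6J mice that ate an HFD (60% of calories from fat) for 12 weeks and then moved to a NCD (16% of calories from fat) for 6 weeks until week 18, and the sources used here do not settle their age at the start. During the NCD, 4 mice (mice 1, 2, 6 and 9) had an isotype control Ab and 4 mice (mice 5, 7, 8 and 10) had the anti-BAFF Ab Sandy-2, each at 2 mg/kg every 2 weeks. There was 1 library per mouse and no lean group, so every comparison here is between obese-then-dieted mice that differ in the antibody.

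Macrophages of fat fall broadly into a resident pool, which sits along vessels, maintains itself locally and takes up iron, debris and proteins from the blood, and a monocyte-derived pool that grows in obesity and surrounds dying adipocytes. The resident pool is recognised by scavenger and endocytic receptors (the products of Mrc1, Cd163, Lyve1, Folr2 and Timd4), while Csf1r and Adgre1 are carried by nearly all macrophages. BAFF is a survival factor of B cells, and the comparison asks whether its neutralization was accompanied by a change in these macrophage genes. In bulk RNA of this kind, fewer cells of a type and less RNA per cell cannot be told apart.

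The tissue label fitted the markers measured. All 14 genes of the pan-macrophage list passed the filter, led by Lyz2, Ctss and Mpeg1 (log2 fold changes 0.00, 0.00 and 0.09), and their summed level lay between 11164 and 16929 CPM (counts relative to library size, TMM-scaled) with control Ab and between 12116 and 14056 CPM with anti-BAFF Ab. Adipocyte genes were low, with Adipoq between 3.91 and 10.5 CPM. The listed B cell genes, 5 in all, had an unadjusted p under 0.05 and lower levels with anti-BAFF Ab, and 0 of the 5 passed after adjustment. Libraries held 13562340 to 18548024 counts, so that 3 counts, taken as the lowest level the depth shows, equal 0.165 to 0.219 CPM. Epididymis genes, from tissue next to the gonadal pad, summed to 1580 CPM in mouse 2 and 1637 CPM in mouse 7 against 12.8 to 673 CPM in the other 6 mice, and the results that turn on these mice are also given without them.

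Sequences of the start regions are shown for Retnla, whose level differed most between the groups, and for Cbr2, the other member whose window holds a STAT6-type match. The windows run from 250 bases before to 50 bases after an annotated start and come from RefSeq (GRCm38.p6). Capitals mark matches to the motifs searched. In the Retnla window (chr16:48842359-48842658, plus strand) they are, from left to right, the PU.1 core read on the opposite strand, the STAT6-type motif and the TATA box, which begin 198, 145 and 30 bases before the start. In the Cbr2 window (chr11:120731972-120732271, minus strand) they are the STAT6-type motif, which begins 24 bases after the start.
Retnla: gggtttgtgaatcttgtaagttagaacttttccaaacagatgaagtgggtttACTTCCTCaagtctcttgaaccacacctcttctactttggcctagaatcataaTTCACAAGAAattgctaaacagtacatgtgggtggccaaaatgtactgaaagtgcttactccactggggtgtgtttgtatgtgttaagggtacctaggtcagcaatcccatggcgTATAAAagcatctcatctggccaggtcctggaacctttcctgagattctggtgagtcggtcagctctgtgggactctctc
Cbr2: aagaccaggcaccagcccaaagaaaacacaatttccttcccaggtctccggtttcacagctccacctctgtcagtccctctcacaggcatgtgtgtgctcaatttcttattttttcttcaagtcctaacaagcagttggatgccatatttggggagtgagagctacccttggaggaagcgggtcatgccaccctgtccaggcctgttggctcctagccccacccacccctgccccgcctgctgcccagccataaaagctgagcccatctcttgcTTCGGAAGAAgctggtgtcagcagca

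Windows were held for 7 of the 10 members (9 windows, since Folr2 and F13a1 have a pair each), and not for Adgre1, Csf1r and Lyve1. PU.1 is the factor that sets the myeloid lineage, and its core GAGGAAGT was found in windows of 2 members, F13a1 and Retnla, and in 3.20% of all 32851 windows. The STAT6-type motif (TTC and GAA with 4 bases between) was found in Cbr2 and Retnla and in 6.95% of all windows. The AP-1 motif TGACTCA was found in Folr2 and in 5.20% of all windows, and TATAAA, searched on the plus strand of the gene only, was found in Retnla and in 8.32% of all windows. The E-box CACGTG (7.15% of all windows) and the C/EBP motif TTGCGCAA (0.183%) matched no member window. Except for TATAAA, both strands were searched. A match describes the letters of the window and is neither a bound site nor a cause.

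Levels between genes were compared per length, as FPKM from the deposited gene lengths. Retnla, which encodes the secreted protein RELM alpha and is induced by type 2 cytokines, had the highest mean level over the 8 mice (537 FPKM, range 212 to 1228). Csf1r, the receptor for CSF1 and IL-34 that macrophages need to survive, followed at 227 FPKM (195 to 253), and Adgre1, which encodes the F4/80 antigen, at 193 FPKM (164 to 248). Mrc1, the mannose receptor CD206, had 115 FPKM (93.2 to 132), Cbr2, a carbonyl reductase, 88.5 FPKM (62.8 to 100.1) and F13a1, the catalytic subunit of clotting factor XIII, 71.3 FPKM (49.1 to 90.4). The receptors most specific to the resident pool were lower. Lyve1, the hyaluronan receptor, had 29.7 FPKM (20.1 to 40.4), Folr2, the folate receptor beta, 26.5 FPKM (19.4 to 33.8) and Cd163, the haemoglobin scavenger receptor, 25.9 FPKM (12.9 to 47.5). Timd4, the phosphatidylserine receptor TIM-4, was lowest at 3.70 FPKM (1.83 to 5.23).

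**Figure D1:**
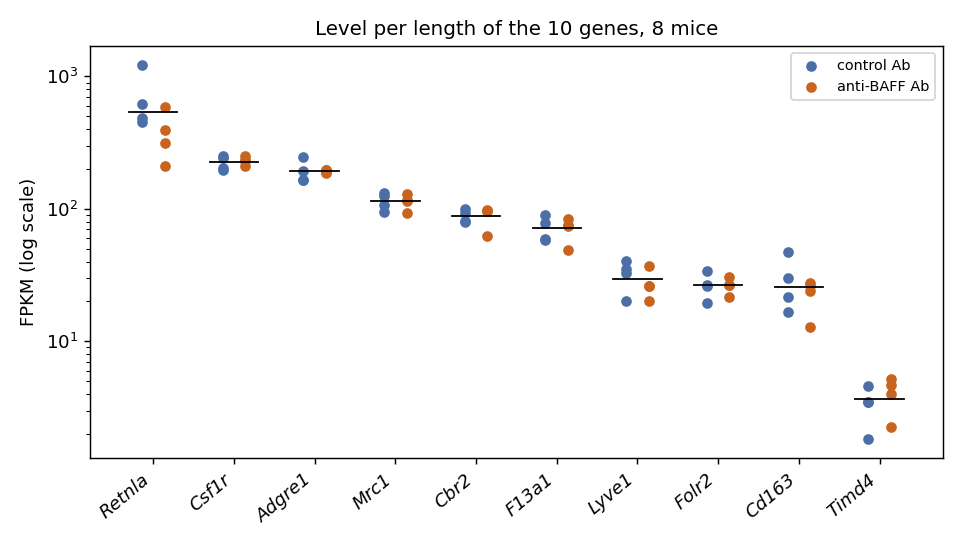
Level per length (FPKM, log scale) of the 10 genes, ordered by their mean over 8 mice (black lines), with 1 point per mouse coloured by antibody. Retnla has the widest range, 212 to 1228 FPKM, while Timd4 stays between 1.83 and 5.23 FPKM, below every value of the other 9 genes.

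This order held in each mouse for most neighbours. The higher gene of a pair was above the lower one in 8 of 8 mice for 7 of the 9 neighbouring pairs, but for Lyve1 and Folr2 in 4 of 8 and for Folr2 and Cd163 in 5 of 8. Those 3 receptors therefore had no fixed order. Across mice, values of neighbours overlapped except between Adgre1 and Mrc1, between F13a1 and Lyve1, and between Cd163 and Timd4, where the mean differed 6.99-fold. The gene with the highest level was thus also the one that varied most, and Csf1r, next to it, varied least.

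None of the 10 genes rose or fell after adjustment over all genes tested (edgeR's quasi-likelihood test, adjusted p = 1.00 for each). At that threshold 0.0564% of all genes tested were lower and 0% higher with anti-BAFF Ab. DESeq2's Wald test also called 0 of the 10, against 0.264% of its genes in either direction. At an unadjusted p of 0.05, 1 member (Retnla) was lower and 0 were higher, where 1.24% of all genes tested were lower and 0.664% higher. The values of the groups did not overlap for 0 members, against 0.952% of genes tested lying wholly lower and 0.526% wholly higher. The median log2 fold change (anti-BAFF Ab over control Ab) was -0.01 over the members and 0.00 over all genes tested, with 7 members below 0 and 3 above (Adgre1, among the latter, turned below 0 with the RLE, upper quartile and library-size scalings), and 48.5% of all genes tested below 0. The point estimates of 6 members lay within 0.05 of 0 on the log2 scale.

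The intervals limit how large an undetected difference could be. The 95% interval stayed inside a 1.5-fold change in either direction for 6 members (Csf1r, Adgre1, Mrc1, Folr2, Cbr2 and F13a1) and inside a 2-fold change for 8, with Lyve1 and Timd4 added. Cd163 and Retnla had intervals that reached beyond a 2-fold decrease. These intervals rest on the spread between mice, 4 per group, which edgeR moderates with that of all genes tested (prior degrees of freedom 3.14).

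**Figure D2:**
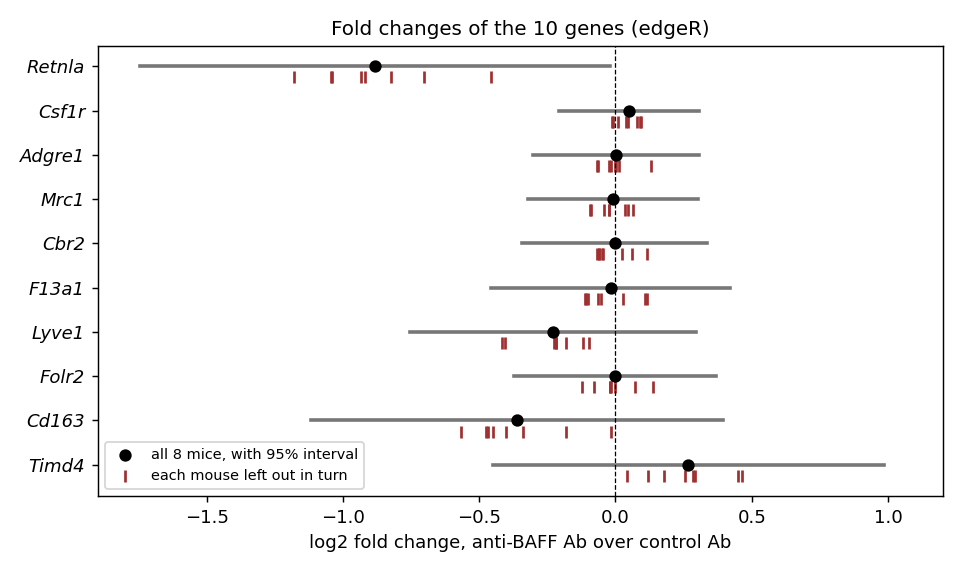
Log2 fold change of each gene, anti-BAFF Ab over control Ab, from edgeR with all 8 mice (black points, grey lines the 95% interval) and with each mouse left out in turn (red ticks). The interval of Retnla, -1.74 to -0.02, is the only one of the 10 that leaves out 0, and its ticks run from -1.18 to -0.46.

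Among the genes that nearly all macrophages carry, Csf1r was at 1234, 1181, 955 and 999 CPM in control mice 1, 2, 6 and 9 and at 1234, 1024, 1126 and 1133 CPM in anti-BAFF mice 5, 7, 8 and 10. The groups overlapped almost fully, and the log2 fold change was 0.05 (SE 0.11, 95% interval -0.21 to 0.31). Adgre1 was at 804, 622, 536 and 531 CPM in the control Ab-treated mice and at 640, 610, 636 and 609 CPM in the anti-BAFF Ab-treated mice. Control mouse 1 was the highest and the 4 anti-BAFF Ab-treated mice lay close together, with means of 623 ± 127 CPM (SD, n = 4) and 624 ± 16.1 CPM (SD, n = 4). Its log2 fold change was 0.00 (SE 0.14, 95% interval -0.30 to 0.31). Ligands of the CSF1 receptor, myeloid transcription factors and other colony-stimulating factor receptors were listed beside it. Of the 8 tested, 0 passed the adjusted threshold, 0 were lower and 1 was higher at an unadjusted p of 0.05. That gene was Csf1, the ligand itself, at 159, 156, 177 and 188 CPM with control Ab and 180, 183, 219 and 257 CPM with anti-BAFF Ab. Mice 5 and 7 lay below control mouse 9, and the log2 fold change was 0.30 (SE 0.13). The p was 0.0401 before and 1.00 after adjustment in edgeR's quasi-likelihood test, and 0.114 in the two-sided exact permutation test. Its unadjusted p was under 0.05 in 10 of the 20 fits run, and all 20 gave a value above 0. Spi1, which encodes PU.1, had a log2 fold change of 0.09 (SE 0.17) and Csf2ra, a GM-CSF receptor subunit, -0.06 (SE 0.15).

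Of the endocytic receptors, Mrc1 was at 840, 799, 606 and 682 CPM in the control Ab-treated mice and at 830, 594, 735 and 749 CPM with anti-BAFF Ab. The highest and the lowest mouse lay in different groups, and the log2 fold change was -0.01 (SE 0.14, 95% interval -0.32 to 0.30). Folr2 was at 40.9, 52.2, 30.1 and 40.6 CPM with control Ab and at 41.5, 33.6, 41.4 and 47.4 CPM with anti-BAFF Ab. Both extremes were control Ab-treated mice, and the log2 fold change was 0.00 (SE 0.16, 95% interval -0.37 to 0.37). Of the 5 other folate genes listed, 0 had an unadjusted p under 0.05, and the folate carriers Slc19a1 and Slc46a1 had log2 fold changes of 0.02 (SE 0.12) and 0.04 (SE 0.29). Opposite Folr2 in the genome lies the antisense gene Gm10602, at 3.58% of the Folr2 level, and opposite Csf1r lies Hmgxb3, at 2.55%. Since strand was not given in the sources used here, reads of such pairs cannot be told apart.

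Cd163 had the widest spread of the receptors. It was at 91.1, 259, 119 and 166 CPM in the control Ab-treated mice and at 142, 70.7, 132 and 150.0 CPM in the anti-BAFF Ab-treated mice. Mouse 2 was far above the other 7 and mouse 7 lowest, a 3.67-fold range, and the groups overlapped. The log2 fold change was -0.36 (SE 0.33, 95% interval -1.12 to 0.39). It was -0.02 without mouse 2, -0.18 without mouse 7 and 0.15 (SE 0.21) without both, but -0.57 without mouse 1. Genes that handle haem and iron after uptake showed 0 lower and 0 higher of 9 tested at an unadjusted p of 0.05, with log2 fold changes of 0.03 (SE 0.15) for Hmox1, haem oxygenase, 0.00 (SE 0.16) for Fth1 and 0.13 (SE 0.14) for Ftl1, the ferritin chains. Without control mouse 1, whose sum of these genes was the highest at 9484 CPM, 2 of the 9 were higher at that threshold. Of all genes tested, 5.33% were higher at that threshold in that fit, against 0.664% with no mouse left out. After adjustment 0 of the 9 passed in that fit.

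Lyve1 was at 58.6, 118, 95.7 and 102 CPM in the control Ab-treated mice and at 76.8, 58.6, 76.3 and 108 CPM in the anti-BAFF Ab-treated mice. Control mouse 1 and anti-BAFF mouse 7 were lowest and almost equal, and the groups overlapped. The log2 fold change was -0.23 (SE 0.23, 95% interval -0.75 to 0.30), and it was 0.01 without mice 2 and 7, -0.10 without mouse 2 and -0.12 without mouse 7, but -0.42 without mouse 1 and -0.41 without mouse 10. Lymphatic vessels also carry Lyve1. All 5 of their markers listed (Prox1, Flt4, Ccl21a, Mmrn1 and Reln) were measured in every mouse and none was at 0. Their sum lay between 51.8 and 155 CPM with control Ab and between 67.8 and 117 CPM with anti-BAFF Ab, and 0 of 5 had an unadjusted p under 0.05. Mice 6, 9 and 10, with the 3 highest sums (155, 154 and 117 CPM), were among the 4 mice highest for Lyve1, and mouse 1 had the lowest sum and the next to lowest Lyve1. Mice 2 and 7, the highest and the lowest for Lyve1, had sums of 67.2 and 103 CPM. The part of lymphatic cells in Lyve1 was not tested.

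Timd4 was the lowest of the 10 genes, at 3.97, 7.63, 7.53 and 10.04 CPM with control Ab (64 to 162 counts) and at 8.68, 4.90, 10.2 and 11.4 CPM with anti-BAFF Ab (87 to 206 counts). Mice 1 and 7 were lowest in their groups, as for Lyve1, and the groups overlapped. The log2 fold change of 0.27 (SE 0.32, 95% interval -0.45 to 0.99) was 0.04 without mouse 1, but 0.46 without mouse 9, 0.45 without mouse 7 and 0.47 without mice 2 and 7. Large peritoneal macrophages also carry Timd4. All 8 of their genes listed were tested, 0 with an unadjusted p under 0.05, and their sum lay between 262 and 678 CPM with control Ab and between 397 and 641 CPM with anti-BAFF Ab. Most of that sum came from Ltbp1 and Selp, with means of 199 and 191 CPM over the 8 mice. The summed blood endothelial genes listed (Pecam1, Cdh5, Emcn and Kdr) were also lowest in mouse 1 (494 CPM) and highest in mouse 6 (889 CPM). The peritoneal list sum cannot be read as a level of these macrophages alone, and the part of endothelial or other cells in it was not tested. Gata6, the defining factor of these macrophages, which mesothelial cells also express, ran from 15.9 CPM in mouse 1 to 33.2 CPM in mouse 5. Mouse 1 had the lowest value of Timd4, Gata6 and the peritoneal list sum. Mouse 6, with the highest sum of that list and the highest Selp (321 CPM), was 6th of 8 for Timd4, and mouse 5 was 4th. The part of peritoneal macrophages in Timd4 was not tested.

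Both enzyme genes of the resident pool had point estimates near 0. F13a1 was at 402, 609, 396 and 526 CPM in the control Ab-treated mice and at 509, 331, 504 and 566 CPM in the anti-BAFF Ab-treated mice, with mouse 2 highest and mouse 7 lowest. The log2 fold change was -0.02 (SE 0.19, 95% interval -0.46 to 0.42). Cbr2 was at 108, 133, 105 and 124 CPM and at 130, 83.3, 129 and 128 CPM, in the same order of mice. Mice 5, 8 and 10 lay within 2 CPM of each other and mouse 7 well below them, and the log2 fold change was 0.00 (SE 0.15, 95% interval -0.34 to 0.34).

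Retnla was the member that differed most. It was at 291, 272, 371 and 735 CPM in control mice 1, 2, 6 and 9 and at 188, 127, 236 and 354 CPM in anti-BAFF mice 5, 7, 8 and 10. The lowest control value was above 3 of the 4 anti-BAFF values, while anti-BAFF mouse 10 lay above control mice 1 and 2, so the groups overlapped. Means were 417 ± 216 CPM (SD, n = 4) and 226 ± 95.9 CPM (SD, n = 4), a fold of 0.542 (95% interval 0.299 to 0.985) or -0.88 on the log2 scale (SE 0.38). The unadjusted p was 0.0456 and the adjusted p 1.00 by edgeR's quasi-likelihood test, and the two-sided exact permutation test of the means gave p = 0.114, where 4 mice against 4 allow no p below 0.0286. The unadjusted threshold was missed in 5 of the 8 fits that left out 1 mouse, those without control mouse 6 or 9 or without anti-BAFF mouse 5, 7 or 8. The log2 fold change was smallest without control mouse 9, at -0.46 (SE 0.31), and otherwise between -1.18 and -0.70. With the summed pan-macrophage counts as library size, it was -0.97 (SE 0.45), just outside the unadjusted threshold. The related gene Retnlg, a neutrophil gene, stayed between 0.06 and 3.10 CPM.

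**Figure D3:**
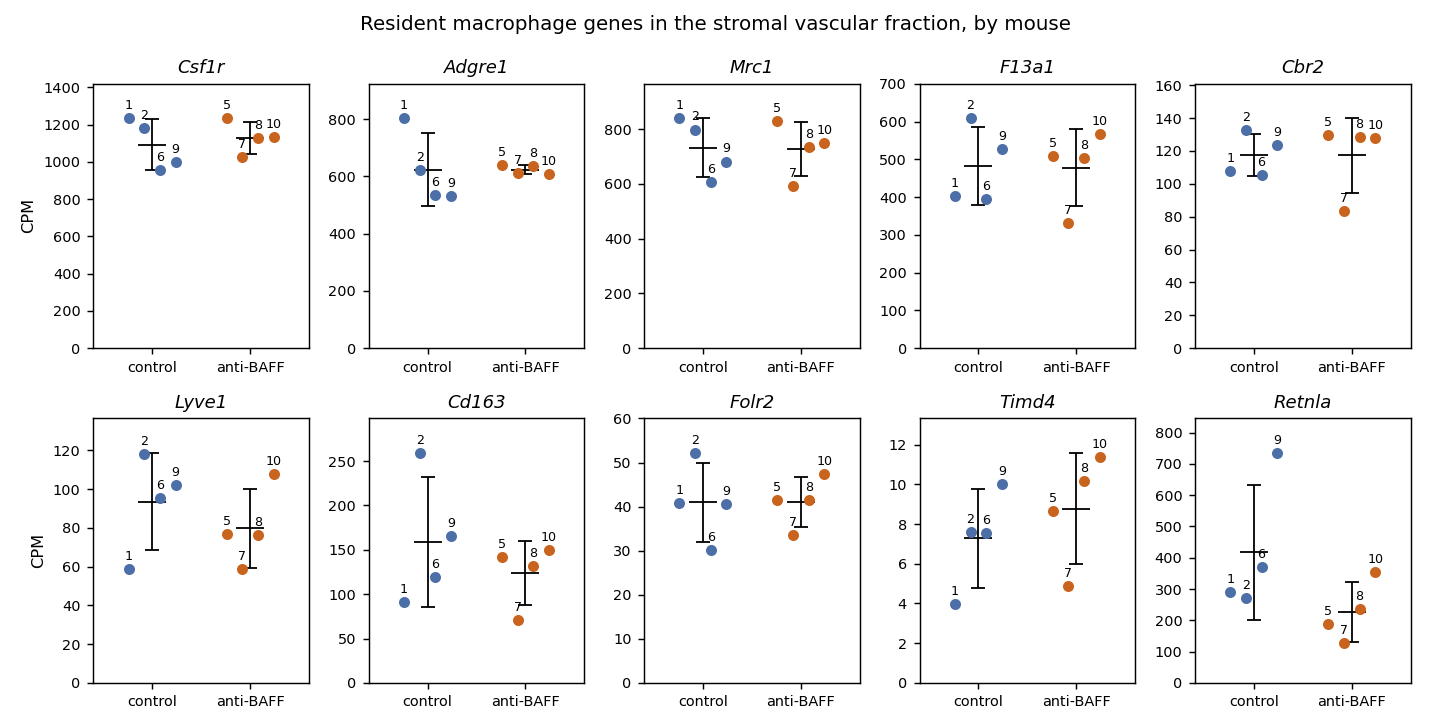
CPM of each gene by mouse (points with mouse numbers; black bars the group mean with its SD, n = 4), each axis starting at 0. The groups overlap in all 10 panels, and mouse 9 stands above the rest for Retnla at 735 CPM, as mouse 2 does for Cd163 at 259 CPM.

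Retnla belongs to the genes of alternative activation, which IL-4 and IL-13 induce through STAT6. The list of that pathway held 14 other genes, the cytokines, Il4ra and Stat6 included, and of these 0 passed the adjusted threshold, 1 was lower and 0 were higher at an unadjusted p of 0.05, and their median log2 fold change was 0.01. The lower gene was Mgl2, a lectin of resident macrophages and dendritic cells, which is also in the list of other resident macrophage genes and is named here because of its value. It was at 51.7, 52.8, 50.6 and 68.2 CPM with control Ab and at 33.1, 24.7, 44.6 and 45.4 CPM with anti-BAFF Ab. Every anti-BAFF value was below every control value, and the log2 fold change was -0.60 (SE 0.19). The p was 0.0127 before and 1.00 after adjustment in edgeR's quasi-likelihood test, and 0.0286 in the two-sided exact permutation test. In all 20 fits it stayed below 0 with an unadjusted p under 0.05. Its close paralog Clec10a had -0.03 (SE 0.16), and how the counting split reads between the pair is not known. Upstream of both, Il4ra, the receptor chain for IL-4 and IL-13, had a log2 fold change of 0.07 (SE 0.16), Stat6 0.01 (SE 0.12) and Klf4 -0.29 (SE 0.20). Arg1, arginase 1, was at 121 CPM in mouse 5 and between 2.60 and 8.81 CPM in the other 7 mice, and mouse 5 also had the highest neutrophil sum, 88.2 CPM against 3.58 to 12.96 CPM, and was low for Retnla. What neutrophils contributed was not tested.

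Of the wider list of 19 resident macrophage genes, 0 were called after adjustment. At an unadjusted p of 0.05, 1 (Mgl2) was lower and 0 were higher, where 1.24% of all genes tested were lower and 0.664% higher. The median log2 fold change was -0.03, with 13 genes below 0 and 6 above, where 48.5% of all genes tested were below 0. The most abundant of them were Selenop, a selenium carrier protein, with 0.08 (SE 0.10), Stab1, the scavenger receptor stabilin 1, with 0.06 (SE 0.17) and Gas6, a ligand that bridges dead cells to macrophages, with -0.09 (SE 0.11). Of the 14 lipid-associated macrophage genes, 0 had an unadjusted p under 0.05, and Gpnmb, Lpl and Lgals3, the most abundant, had 0.00 (SE 0.24), 0.02 (SE 0.16) and 0.09 (SE 0.20). Of these 14, 12 were above 0, with a median of 0.06, where 48.5% of all genes tested were below 0. Most of them were highest in the same mouse, control mouse 1, so they did not vary independently. The 14 pan-macrophage, 8 monocyte and 7 inflammatory macrophage genes held 0 with an unadjusted p under 0.05, and their medians were 0.00, 0.01 and 0.08. Of the monocyte genes, 4 were below 0 and 4 above. The most abundant were Fn1 with -0.004 (SE 0.12), Ccr2, the receptor that brings monocytes into tissue, with 0.18 (SE 0.24) and Plac8 with -0.32 (SE 0.25). Fn1 had a mean of 4483 CPM against 63.7 CPM for Ccr2, and the part of other cells in Fn1 was not tested. Among the inflammatory genes, Il1b had 0.22 (SE 0.43), Il6 0.05 (SE 0.41) and Itgax -0.04 (SE 0.15), with wide errors for both cytokines. The counts of 0 in these lists rested on control mouse 1. Without it, 6 lipid-associated, 7 pan-macrophage and 1 inflammatory macrophage gene were higher with anti-BAFF Ab at an unadjusted p of 0.05, 1 monocyte gene was higher and 1 lower, and 0 of them passed after adjustment. In that fit 5.18% of all genes tested were lower and 5.33% higher at the same threshold, while among the members Retnla was again the 1 gene called.

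Most of the 10 genes, but not Csf1r, Adgre1 and Mrc1, varied more between mice of a group than the median gene tested. The within-group SD of log2 CPM had a median of 0.30 over the 10 genes. It was 0.23 over all genes tested and 0.16 over those at 10 CPM or more, and 7 of the 10 were above the median of all genes tested. Retnla (0.64), Cd163 (0.58), Timd4 (0.54) and Lyve1 (0.40) varied most, and Csf1r (0.15) least. Adgre1 (0.20) and Mrc1 (0.21) were above the median of genes at 10 CPM or more, and Csf1r was below it. The highest mouse exceeded the lowest 5.78-fold for Retnla, 3.67-fold for Cd163, 2.86-fold for Timd4, 2.02-fold for Lyve1 and 1.29-fold for Csf1r.

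Single mice stood apart for several members at once. Mouse 7 was below the mean of all mice for 10 of the 10 genes, with a median difference of -0.50 on the log2 scale, and had the lowest value of 6. Mouse 2 was highest for 5 genes and above the mean for 9, and mouse 10 was above the mean for 9 as well. Mouse 1 was split. It was highest for Adgre1 and Mrc1, but lowest for Timd4 and next to lowest for Lyve1 and Cd163. The profiles over mice were most alike, among the members, for Csf1r and Mrc1 (root mean square difference of centred log2 CPM 0.07), followed by Adgre1 and Csf1r (0.103) and by F13a1 and Cbr2 (0.104).

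**Figure D4:**
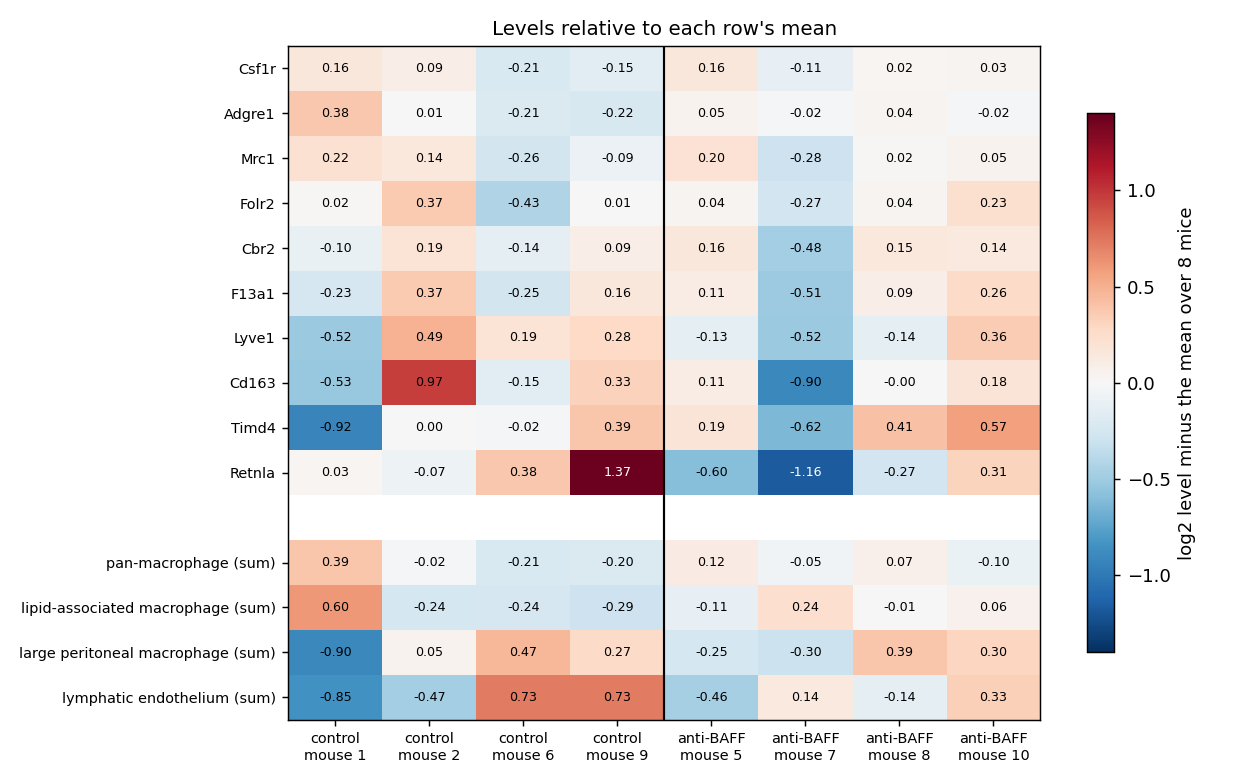
Log2 CPM of each gene minus its mean over the 8 mice, with the same for the summed CPM of 4 marker lists below, mice in columns and control Ab-treated mice left of the line. Mouse 7 is at or below -0.02 for all 10 genes, and mouse 1 is at -0.92 for Timd4 but 0.38 for Adgre1, 0.39 for the pan-macrophage sum and 0.60 for the lipid-associated sum.

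Set against the summed pan-macrophage level of the same mouse, the members differed in how far they followed it. Adgre1 was almost constant, at 4.55% to 5.03% of that sum in all 8 mice. Csf1r made up 7.29% in mouse 1 and 8.19% in mouse 7, against 8.27% to 9.35% in the other 6. Mrc1 made up 4.96% and 4.75% in the same 2 mice, against 5.40% to 6.24%, and Folr2 0.241% and 0.268%, against 0.269% to 0.408%. F13a1 made up 2.37% in mouse 1 and 2.65% in mouse 7, against 3.54% to 4.76% in the other 6. Lyve1 made up 0.346% in mouse 1 and 0.468% in mouse 7, against 0.546% to 0.923% elsewhere, and for Cd163 the same pair had 0.538% and 0.565%, against 0.968% to 2.03%. For Timd4 mice 1 and 7 had 0.0235% and 0.0392%, against 0.0596% to 0.0938%, and for Cbr2 0.638% and 0.666%, against 0.921% to 1.10%. Mice 1 and 7, one from each group, thus had the lowest shares of 8 of the 10 members, the exceptions being Adgre1 and Retnla. Mouse 1 also had the largest sum to divide by (16929 CPM), and its own CPM of F13a1 and Cbr2 was above that of mouse 6. Mice 1 and 7 also had the highest summed levels of lipid-associated macrophage genes, 19559 and 15143.5 CPM against 10493 to 13372 CPM in the other 6 mice. The inflammatory macrophage genes were divided in this pair. Both mice were lowest for Il1b (196 and 203 CPM against 430 to 690 CPM), Il6 and Cd86. They were highest for Tnf (165 and 193 CPM against 73.9 to 149 CPM) and Itgax, and Cd80 and Nos2 did not set them apart. Itgax is also in the lipid-associated list, so its value is already part of that sum. These are descriptions of mice and were not tested. With the pan-macrophage counts as library size, edgeR gave no member an unadjusted p under 0.05.

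**Figure D5:**
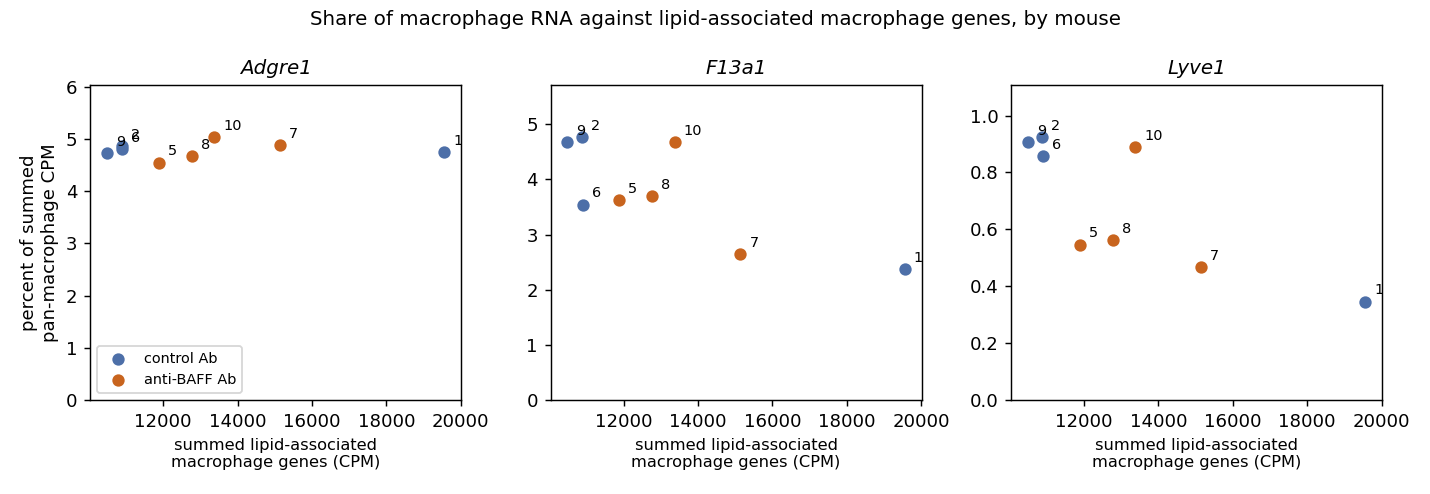
Level of Adgre1, F13a1 and Lyve1 as a percent of the summed pan-macrophage CPM (vertical, from 0) against the summed CPM of lipid-associated macrophage genes (horizontal, not from 0), with 1 numbered point per mouse coloured by antibody. Adgre1 stays between 4.55% and 5.03%, while mice 1 and 7, at the right, have the lowest values of F13a1 and Lyve1.

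Among all other genes tested, the one whose profile over the 8 mice was nearest to each member was found by the root mean square difference of centred log2 CPM. For Cd163 it was Cd209b (0.14), a C-type lectin and itself a gene of the resident list. Lyve1 was nearest to Amigo2 (0.11), Timd4 to Il1a (0.11), Cbr2 to Tlr9 (0.08), Folr2 to Arsg (0.09) and F13a1 to Cox20 (0.07). The flattest profiles among the members, those of Adgre1, Csf1r and Mrc1, were matched most closely by Cops6 (0.03), Pdcd2l (0.04) and Rpsa-ps2 (0.05). Retnla had no close match: its nearest gene, Gm16365, differed by 0.29, and Retnla's own deviation from its mean was 0.70. With 8 mice and 15963 genes, a near profile is a description only.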

How the data were processed

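RNA-seq of 8 SVF libraries was analysed, with groups and mouse numbers as labelled. The authors deposited raw read counts per gene for each mouse, with gene coordinates and a gene length in bases, a value of another kind (other) that was used here to compute FPKM. The submitters' processing notes name the build mm10. The aligner, the counting tool and the strand setting are not given in the sources used here. Per the methods, levels were FPKM and calls were made at an adjusted p of 0.05.

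The test across genes was run in R 4.3.3 by edgeR 4.0.16 (minimum count 10 in filterByExpr, TMM, glmQLFit and the quasi-likelihood test, treatment as the only term, prior degrees of freedom 3.14). Benjamini-Hochberg adjustment covered all 15963 genes tested. Intervals at 95% came from the standard errors. DESeq2 1.42.0 and limma 3.58.1 on log2(FPKM + 1) were alternatives, with other scalings, filters and mice left out. The pipeline was tested on simulated data. Per-mouse summaries used Python 3.11.15 and scipy 1.17.1. No pair of replicates agreed within sampling noise (smallest chi-square per degree of freedom 7.32). Totals of 13562340 to 18548024 counts per mouse limit the precision of low genes such as Timd4, and floors cover counting error only.

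The 10 genes and the marker lists were chosen with earlier results of these data known. Named are the 10 members, genes of the lists described, taken from the 3 most abundant of each, the gene nearest in profile to each member, and a few genes chosen after their values were seen (Mgl2, Arg1, Clec10a, Il1b, Retnlg, and the markers of other cells). Start regions were searched for motifs in RefSeq windows of GRCm38.p6. Each library is a separate mouse, and the groups had been set from a glucose tolerance test.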

Additional observations from a re-analysis of the deposited data

Results flagged for a closer look

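Of 60 groups of 4 values examined (members and summed marker lists, each in 4 mice), 6 held a mouse far from the other 3, where chance gives about 3, and 1 of the 6 was among the 20 groups of the members. Cbr2 in anti-BAFF mouse 7 was that one, at 83.3 CPM against 128 to 130 CPM in the other 3 mice. Control mouse 1 stood above the other control Ab-treated mice for the summed CSF1R axis genes (1304 CPM), the haem and iron genes (9484 CPM) and the lipid-associated macrophage genes (19559 CPM). In the anti-BAFF Ab-treated group, mouse 7 was low for the summed dendritic cell genes (53.0 CPM) and mouse 5 was high for the summed neutrophil genes (88.2 CPM).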

How the results depend on the processing

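No member passed an adjusted p of 0.05 under any of the 19 alternatives. Over all genes, 9 passed, against 2 with pan-macrophage counts as library size, the robust option or limma on log2(FPKM + 0.1), 19 without a filter, 70 with DESeq2, 3 without mice 2 and 7, and 2 to 9 with each mouse left out. The 1 member with an unadjusted p under 0.05, Retnla, became 0 with the pan-macrophage scaling, the robust option, DESeq2, limma on log2(FPKM + 0.1) or without mice 2 and 7, and 0 to 1 with each mouse left out. Retnla stayed below 0 in all 20 fits (-1.18 to -0.46). Near-zero fold changes turned sign: Adgre1 to -0.0051 with RLE, -0.021 with upper quartile, -0.0096 with library size only, -0.014 without a filter, -0.011 with 10 counts in every mouse, -0.0037 with DESeq2 and -0.0053 without mice 2 and 7, and Folr2 to 0.0037 and 0.0045 with limma on log2(FPKM + 1) and log2(FPKM + 0.1). Without mice 2 and 7, Mrc1 was 0.10, Lyve1 0.0056, Cd163 0.15, F13a1 0.24, Cbr2 0.18 and Folr2 0.21. With each mouse left out, Adgre1 ranged from -0.067 to 0.13, Csf1r from -0.012 to 0.095, Mrc1 from -0.093 to 0.063, Folr2 from -0.12 to 0.14, F13a1 from -0.11 to 0.11, Cbr2 from -0.069 to 0.12, Lyve1 from -0.42 to -0.10, Cd163 from -0.57 to -0.02 and Timd4 from 0.04 to 0.46. With each mouse left out, listed genes with an unadjusted p under 0.05 numbered 1 to 2 for other resident macrophage genes, 1 to 3 for alternative activation, 0 to 1 for the CSF1R axis and 0 to 1 for peritoneal macrophages. The cause was not tested. No paired analysis was possible because the groups share no mouse number.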
